A study of Homo sapiens with 24 samples.

Results

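The 47 genes described here encode the machinery that copies DNA in S phase and were taken by name from the 60675 genes of the count tables. They fall into 7 role groups, with 9 genes of origin recognition and licensing, 6 subunits of the MCM2-7 helicase, 6 genes of helicase activation, 9 of the polymerases and primase, 6 of the sliding clamp and its loader, 7 of single-strand binding and Okazaki fragment maturation and 4 of deoxynucleotide supply. They were measured by RNA-seq in 24 libraries of 2 human prostate cancer cell lines, LNCaP:C42 (C42), an androgen-independent subline of the LNCaP line, and 22Rv1, a line from a relapsed prostate carcinoma xenograft. Each line received a pool of siRNAs against METTL3, the catalytic subunit of the nuclear m6A RNA methyltransferase (siMETTL3), or a non-targeting pool (siSCR), and after 48 h a second transfection followed by 72 h with the synthetic androgen R1881 at 1 nM or with ethanol as vehicle. All cells were kept in phenol red-free medium with charcoal-stripped serum, which is depleted of steroids, so vehicle cells lacked added androgen. The 8 combinations of line, siRNA pool and treatment had 3 libraries each. The labels do not say that the 3 came from separate cultures, so p-values measure the spread between these libraries, which may be technical, and each line stands for itself alone.

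Replication starts at origins bound by the origin recognition complex, ORC1 to ORC6. In G1 phase ORC, CDC6 and CDT1 load the MCM2-7 ring onto DNA, and geminin (GMNN) blocks CDT1 once S phase has begun. CDC45 and the GINS complex turn the ring into an active helicase with the help of MCM10, polymerase alpha and its primase lay down primers, and polymerases epsilon and delta extend them on the PCNA clamp, which the RFC complex loads. Many of these genes are transcribed at the G1/S border by E2F factors, which the retinoblastoma protein holds back in resting cells, so their mRNAs as a set are often read as a mark of cycling cells. In prostate cancer cells androgen is known to act on the cell cycle in both directions, with growth at low doses and arrest at higher ones in LNCaP and its relatives. In RNA from whole cultures, fewer cells in S phase and less mRNA per cell cannot be told apart.

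Values are given as CPM, a member's share of the counts of its library scaled to a common total, after TMM scaling. Library totals ran from 15716224 to 21306019 counts, at which 3 counts, taken as the smallest readable signal, equal 0.191 to 0.141 CPM. That floor covers counting error only, and no member came near it, as the lowest raw count of a member in any library was 111 (GINS3) and the highest 10205 (MCM7). Of the luminal markers, the keratin KRT8 was at 274 to 606 CPM in C42 and 314 to 597 CPM in 22Rv1. Of 14 markers of other cell types, the collagen gene COL1A1 was at 33.8 to 68.4 CPM in C42 and 15.5 to 32.4 CPM in 22Rv1, the neuroendocrine marker SYP at 80.3 to 132 CPM in 22Rv1, the endothelial marker VWF at up to 11.5 CPM in C42 and the stromal gene LUM at up to 4.51 CPM in 22Rv1. SYP in C42 had at most 45 counts in a library, LUM in C42 and VWF in 22Rv1 at most 2, and the other 10 (KRT5, KRT14, TP63, COL3A1, DCN, PTPRC, CD3E, CD14, PECAM1 and CHGA) at most 31 in either line. KLK3, the androgen-induced marker PSA, was low in 22Rv1 at 6.43 to 10.8 CPM over the vehicle and R1881 libraries together. METTL3 itself was lower with siMETTL3 by 33.8% in vehicle and 32.6% in R1881 in C42, and by 46.1% and 55.6% in 22Rv1. Its groups did not overlap in any of the 4 comparisons (exact two-sided permutation p = 0.1 each, the smallest that 3 against 3 libraries allow), but in C42 with R1881 the edgeR log2 fold change of -0.57 (adjusted p = 0.0256) did not reach 1.5-fold. At the mRNA level the knockdown was therefore partial in all 4 comparisons, and the difference in its depth between the lines was not tested. These counts do not measure METTL3 protein, for which the study reports knockdown by Western blotting in both lines.

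A pair of C42 libraries stood apart from their groups, siSCR with R1881 replicate 1 and siMETTL3 with vehicle replicate 1. The first had 7.08% of its counts on mitochondrial genes against 9.73% and 9.69% in the other two, and the second 9.60% against 6.89% and 7.03%. In 22Rv1, siMETTL3 with vehicle replicate 1 had 7.45% against 5.27% and 5.04%. Counts of members that rest on the C42 libraries are given with and without them, and values of single members are from all libraries unless stated. The counting did not use strand, so reads of MCM7 and AP4M1, FEN1 and TMEM258, or TYMS and ENOSF1 cannot be told apart in the stretches where these genes overlap, and fragments there were left out by the counter's defaults. ORC1, PCNA, RFC3, RFC5, POLD2, FEN1, RPA2, RPA3, TYMS and RRM2 have annotated pseudogene copies, so their levels are uncertain to the extent that reads fit both.

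Per kilobase of exon, the members differed widely in level. In C42 with siSCR and vehicle the highest were TK1, thymidine kinase, at 171.5 CPM per kb, PCNA at 129.7 and MCM7 at 113.0, and the lowest ORC4 at 4.67, ORC3 at 3.00 and GINS3 at 2.31. In 22Rv1 under the same condition PCNA led with 108.6 CPM per kb, then MCM7 with 90.1 and POLD2, the small subunit of polymerase delta, with 53.1, and the lowest were GINS3 at 4.88, GINS4 at 3.62 and ORC4 at 3.52. The 47 members together took 0.456% to 0.501% of the counts of the C42 siSCR vehicle libraries and 0.272% to 0.334% with R1881. With siMETTL3 these shares were 0.368% to 0.456% in vehicle and 0.281% to 0.379% with R1881. In 22Rv1 they lay between 0.379% and 0.435% in all 12 libraries.

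The first question was what androgen did to these genes in each line. In C42 with siSCR, 20 of the 47 members fell with R1881, from every role group but the sliding clamp and loader (edgeR quasi-likelihood test, Benjamini-Hochberg adjusted p below 0.05, with a fold of 1.5 or more) and 1, ORC5, rose. The 20 make 42.6% of the members, where 7.72% of all 16435 genes tested fell, and the single rise compares with 7.39% of all genes. By adjusted p alone 31 members were lower and 1 higher, against 12.1% and 12.7% of all genes. The median log2 fold change of the members was -0.53 and that of all genes -0.03, and 42 of 47 members had a value below 0. TK1 had the largest fall and MCM10, which helps the helicase to start, the next. Without replicate 1 of siSCR with R1881, 12 members were called, 11 of them lower, and the median was -0.38, so that library moves the count by over 1.5 times. Without it and replicate 1 of siMETTL3 with vehicle, 11 were again called lower and 1 higher, against 8.99% and 7.85% of all genes in that fit. By adjusted p alone 32 members were then lower and 2 higher, where 19.2% and 18.6% of all genes were. In siSCR with R1881 replicate 1 the members were at a median log2 ratio to the vehicle mean of -0.72, against -0.42 and -0.37 in the other two libraries. Its mitochondrial share also differed, and the part of either in the result was not tested.

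**Figure D1:**
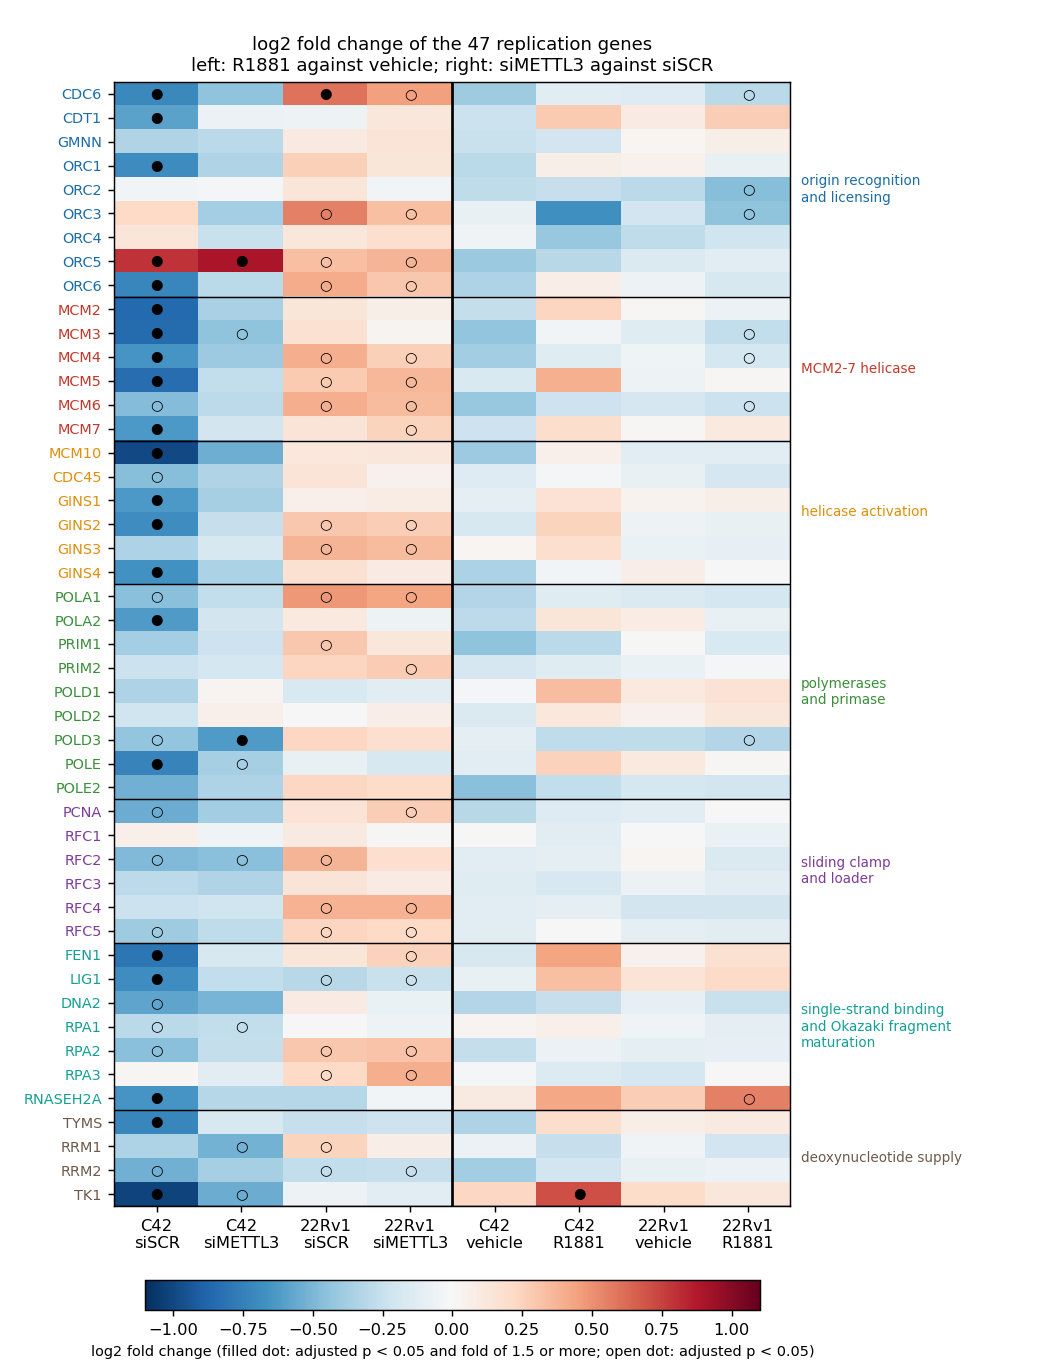
Log2 fold change of each of the 47 members, grouped by role (rows), with R1881 against vehicle and with siMETTL3 against siSCR in both lines (columns), from edgeR fits of 12 libraries per line. Filled dots mark adjusted p under 0.05 with at least 1.5-fold, and open dots adjusted p under 0.05 alone. The column of C42 with siSCR and R1881 is below 0 for 42 members, and the 22Rv1 columns stay closer to 0, with a highest value of 0.60 for CDC6 with siSCR.

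The 6 MCM2-7 subunits, which form the ring that opens the double helix, moved together in C42. With siSCR, 5 of 6 fell with R1881 and MCM6 passed the adjusted p alone, with a median log2 fold change of -0.74. MCM2 was at 254, 248 and 276 CPM in the 3 vehicle libraries and at 132, 150.1 and 150.2 CPM with R1881 (log2 fold change -0.86 ± 0.16 (SE), adjusted p = 0.0013). MCM3 went from 139, 127 and 152 CPM to 65.98, 86.5 and 81.2 CPM (log2 fold change -0.85 ± 0.14 (SE), adjusted p = 0.00032). MCM5 was at 90.03, 89.2 and 91.7 CPM in vehicle and 47.6, 52.3 and 52.9 CPM in R1881 (log2 fold change -0.83 ± 0.17 (SE), adjusted p = 0.0021). For all 6 subunits the R1881 libraries lay below every vehicle library, as they did for 37 of the 47 members (78.7%) and 20.5% of all genes. MCM4 had 181, 176 and 212 CPM in vehicle and 93.1, 137 and 134 CPM in R1881 (log2 fold change -0.65 ± 0.17 (SE), adjusted p = 0.0104), with the lowest value in replicate 1. MCM6 had 99.6, 103 and 116 CPM and 62.7, 82.3 and 84.4 CPM (log2 fold change -0.48 ± 0.13 (SE), adjusted p = 0.0138), again with replicate 1 lowest. MCM7, the subunit with the highest level per kb, had 516, 461 and 510.2 CPM and 300.5, 335 and 331 CPM (log2 fold change -0.63 ± 0.14 (SE), adjusted p = 0.00417). Without both libraries that stood apart MCM2 (-0.78), MCM3 (-0.73) and MCM5 (-0.77) were called, while MCM4 (-0.48), MCM6 (-0.34) and MCM7 (-0.57) passed the adjusted p alone.

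In 22Rv1 with siSCR the same subunits lay higher with R1881, by less. MCM4 was at 176, 182 and 196 CPM in vehicle and 247, 241 and 247 CPM in R1881 (log2 fold change 0.40 ± 0.07 (SE), adjusted p = 5.89e-05), MCM6 at 67.2, 69.04 and 73.8 and 92.96, 89.1 and 96.4 CPM (0.40 ± 0.07, adjusted p = 0.000136) and MCM5 at 114, 111 and 103 and 134, 136 and 134 CPM (0.29 ± 0.08, adjusted p = 0.00808). These 3 passed the adjusted p without reaching 1.5-fold. MCM2 was at 208, 206 and 200.4 and 232, 219.6 and 225 CPM (0.13 ± 0.07, adjusted p = 0.141), MCM3 at 102, 106 and 109 and 118, 119.5 and 119 CPM (0.17 ± 0.07, adjusted p = 0.0554) and MCM7 at 415, 382 and 388 and 435, 424 and 455 CPM (0.14 ± 0.08, adjusted p = 0.159). None of those 3 passed. The R1881 libraries lay above all vehicle libraries in each, as for 23 members (48.9%) and 22.6% of all genes.

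**Figure D2:**
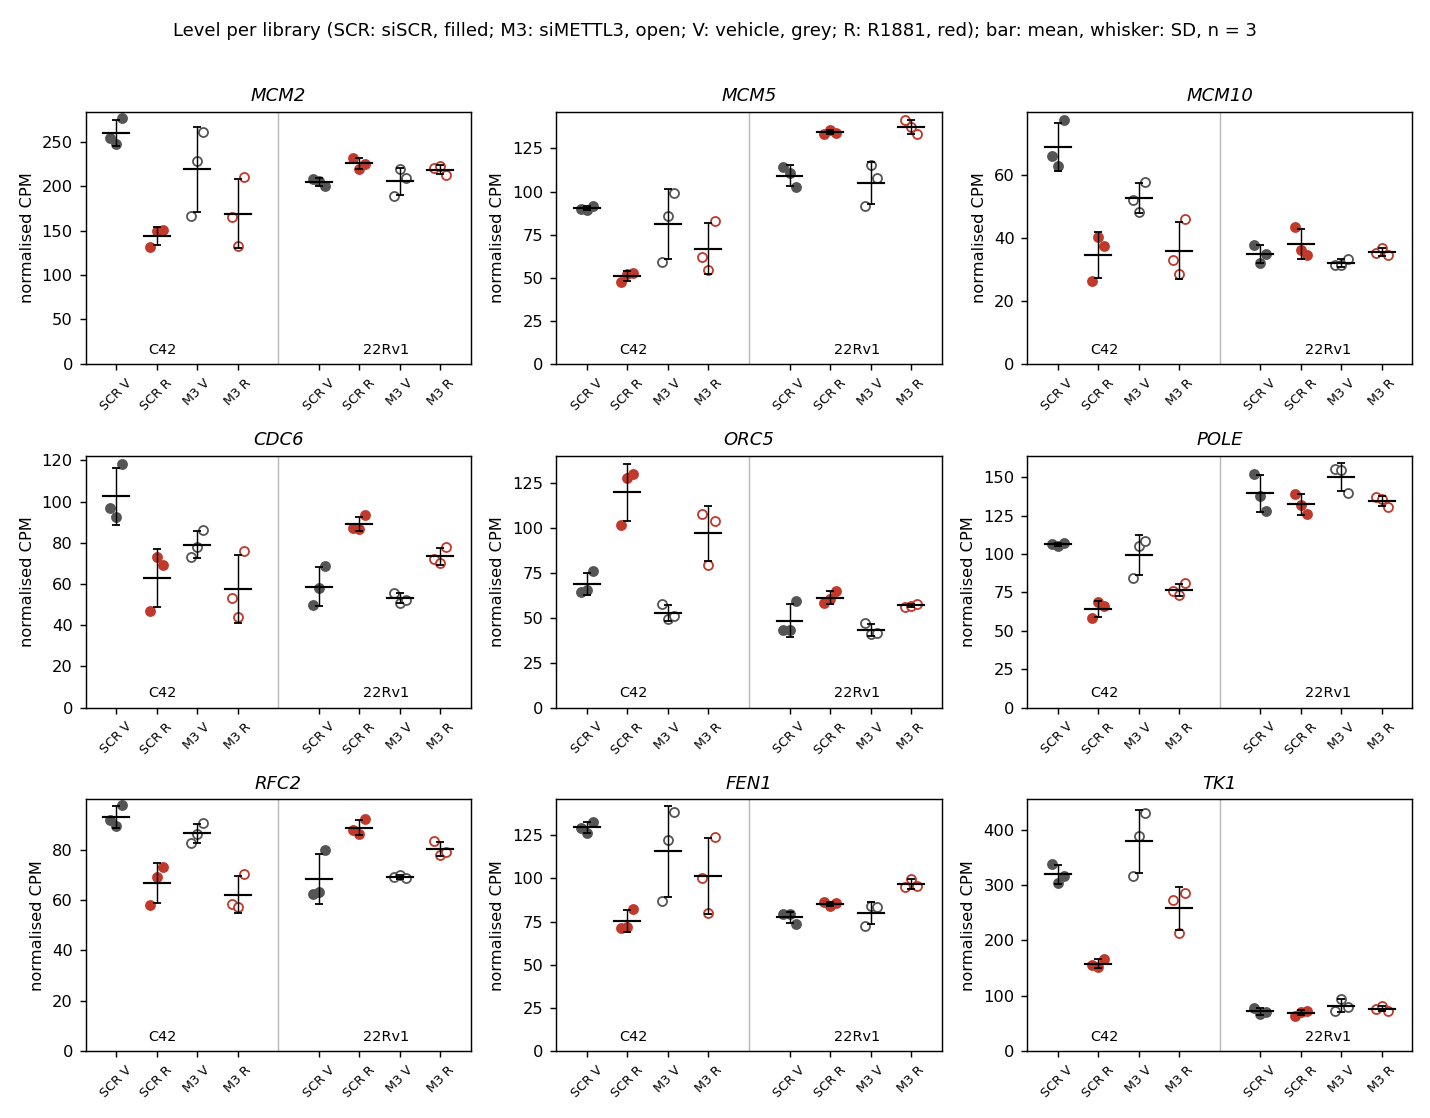
CPM (y axis, from 0) of MCM2, MCM5, MCM10, CDC6, ORC5, POLE, RFC2, FEN1 and TK1 in each library (points) of the 8 conditions (x axis), with the group mean (line) and SD (whisker, n = 3). The C42 siSCR libraries with R1881 lie below those with vehicle in every panel but ORC5, where they lie above.

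With siSCR, CDC6 was the only member that rose by at least 1.5-fold with R1881 in 22Rv1. In C42 TK1 had the largest fall with R1881, and ORC5 was the only member called higher. Promoter sequences are shown for MCM2, MCM3, MCM6, CDC6, TK1 and ORC5. Each is the stretch from 250 bases before to 50 bases after the gene's RefSeq start, on GRCh38.p14, 5′ to 3′ in the gene's direction. Capitals mark the E2F word, any of TTTCCCGC, TTTCGCGC, TTTGCCGC and TTTGGCGC read on either strand. Where a word on one strand overlaps one on the other, the capitals cover both. The windows are chr3:127598161-127598460 (+ strand) for MCM2, chr6:52284693-52284992 (- strand) for MCM3, chr2:135876394-135876693 (- strand) for MCM6, chr17:40287629-40287928 (+ strand) for CDC6, chr17:78187155-78187454 (- strand) for TK1 and chr7:104207964-104208263 (- strand) for ORC5.
MCM2: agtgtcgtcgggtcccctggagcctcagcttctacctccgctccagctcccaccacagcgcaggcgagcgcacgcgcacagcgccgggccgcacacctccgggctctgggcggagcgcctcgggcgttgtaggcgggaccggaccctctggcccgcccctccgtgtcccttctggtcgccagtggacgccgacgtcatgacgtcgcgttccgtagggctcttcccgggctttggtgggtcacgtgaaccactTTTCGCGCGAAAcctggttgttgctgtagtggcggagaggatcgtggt
MCM3: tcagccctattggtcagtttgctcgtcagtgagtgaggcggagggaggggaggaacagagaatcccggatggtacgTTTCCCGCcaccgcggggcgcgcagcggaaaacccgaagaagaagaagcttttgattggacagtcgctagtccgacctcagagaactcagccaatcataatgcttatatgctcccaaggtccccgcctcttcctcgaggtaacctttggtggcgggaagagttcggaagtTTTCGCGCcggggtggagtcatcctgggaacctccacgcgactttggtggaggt
MCM6: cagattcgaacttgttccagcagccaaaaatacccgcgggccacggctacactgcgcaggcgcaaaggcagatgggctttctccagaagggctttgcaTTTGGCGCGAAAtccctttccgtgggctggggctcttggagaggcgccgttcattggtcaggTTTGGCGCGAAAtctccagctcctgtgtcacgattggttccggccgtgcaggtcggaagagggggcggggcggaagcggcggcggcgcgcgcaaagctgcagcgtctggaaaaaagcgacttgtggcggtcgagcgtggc
CDC6: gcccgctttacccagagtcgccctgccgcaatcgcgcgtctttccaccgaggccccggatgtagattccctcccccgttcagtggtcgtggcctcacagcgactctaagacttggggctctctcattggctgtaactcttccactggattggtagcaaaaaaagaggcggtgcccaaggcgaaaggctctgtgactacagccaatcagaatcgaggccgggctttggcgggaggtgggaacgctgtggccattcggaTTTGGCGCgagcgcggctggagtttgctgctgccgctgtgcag
TK1: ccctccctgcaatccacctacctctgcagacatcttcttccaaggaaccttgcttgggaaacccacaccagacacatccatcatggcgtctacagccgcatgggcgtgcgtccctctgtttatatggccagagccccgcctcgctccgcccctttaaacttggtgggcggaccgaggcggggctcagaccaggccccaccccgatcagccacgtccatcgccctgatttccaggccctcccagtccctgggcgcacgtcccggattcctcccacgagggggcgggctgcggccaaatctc
ORC5: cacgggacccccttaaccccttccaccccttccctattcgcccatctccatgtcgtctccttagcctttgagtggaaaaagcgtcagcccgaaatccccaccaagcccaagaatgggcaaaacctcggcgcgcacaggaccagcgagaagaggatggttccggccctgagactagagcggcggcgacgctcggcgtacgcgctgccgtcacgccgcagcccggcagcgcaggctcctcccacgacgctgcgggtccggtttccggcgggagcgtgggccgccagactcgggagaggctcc

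MCM6 held 4 words, in a pair of places where words on opposite strands overlap, MCM2 held 2 in 1 such place next to the start, MCM3 held 2 apart from each other and CDC6 held 1 just past the start. TK1 and ORC5 held none in this window. Of the 47 members, 40 were in the RefSeq promoter table, and MCM4, MCM5, GINS4, POLD3, RPA2, RPA3 and DNA2 were not. The word was in 18 of the 40 windows (45%) and in 908 of all 27305 windows of the same length (3.33%), or 5.26% of the windows of genes tested in C42. The cell cycle homology region word TTTGAA is known from genes of late S phase and mitosis. It was in 1 member window (RRM1, 2.5%), in 15.4% of all windows and in 9.31% of those of genes tested in C42. Median GC was 65.33% both in the member windows and in those of genes tested in C42, and 58.33% in all windows. In C42 with siSCR, the 18 members with the E2F word had a median log2 fold change with R1881 of -0.62 and 11 of them fell, while the 22 without it had a median of -0.36 and 6 fell. Over all genes tested the medians were -0.06 with the word and -0.01 without, and 9.17% and 7.39% fell. With the looser word that lacks the first T the member split was smaller, with a median of -0.54 and 12 of 26 falling against -0.40 and 5 of 14. In C42 with siMETTL3 the member medians were -0.31 with the 8-base word and -0.27 without, and 0 members fell in either set. The split by word was not counted without the C42 libraries that stood apart, where fewer members fell with siSCR. In 22Rv1 with siSCR the member medians were 0.15 with the word and 0.14 without. These are descriptions of letters in a window, with no test.

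The genes of origin recognition and licensing split in C42. With siSCR and R1881, 4 of 9 fell, 1 rose and 4 passed no threshold. CDC6, which loads the helicase, was at 96.8, 92.7 and 118 CPM in vehicle and 46.8, 72.9 and 69.3 CPM in R1881 (log2 fold change -0.71 ± 0.19 (SE), adjusted p = 0.013), with the lowest value in replicate 1. ORC6 (-0.72 ± 0.16, adjusted p = 0.00439), ORC1 (-0.69 ± 0.18, adjusted p = 0.0126) and CDT1 (-0.59 ± 0.18, adjusted p = 0.0237) fell with it. ORC5, a core subunit of the same complex, went the other way, from 64.6, 65.6 and 76.1 CPM to 102, 128 and 129.9 CPM (log2 fold change 0.79 ± 0.13 (SE), adjusted p = 0.000398). ORC2 (-0.03 ± 0.11), ORC3 (0.22 ± 0.19), ORC4 (0.14 ± 0.15) and GMNN (-0.33 ± 0.17) passed no threshold. So the members of ORC itself spanned log2 fold changes from -0.72 to 0.79 under 1 treatment. The 4 falls were each lost with some library left out, CDT1 in 4 of 6 fits (adjusted p up to 0.0789), CDC6 in 2 (up to 0.0592), ORC1 in 2 (up to 0.0656) and ORC6 in 1, without siSCR with R1881 replicate 1, where its log2 fold change was -0.53. Without both libraries that stood apart CDT1 (-0.62) was the only fall called, and CDC6 (-0.52), ORC1 (-0.50) and ORC6 (-0.53) passed the adjusted p alone. ORC5 (0.91) was called higher there, and ORC3 (0.39) was higher by adjusted p alone.

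In 22Rv1 with siSCR this group held the only member that rose by at least 1.5-fold with R1881, CDC6, at 49.6, 58.01 and 68.7 CPM in vehicle and 87.4, 86.8 and 93.3 CPM in R1881 (log2 fold change 0.60 ± 0.09 (SE), adjusted p = 2.8e-05). Its vehicle libraries spread more than its R1881 libraries but did not overlap them. ORC3 (0.56 ± 0.11, adjusted p = 0.000752), ORC6 (0.41 ± 0.09, adjusted p = 0.0016) and ORC5 (0.33 ± 0.10, adjusted p = 0.0138) were higher at an adjusted p under 0.05 without reaching 1.5-fold. The ORC5 libraries, at 43.1, 43.1 and 59.1 CPM in vehicle and 58.2, 60.2 and 65.05 CPM in R1881, overlapped. With all libraries ORC5 was the only member higher with R1881 in both lines by adjusted p. Without both C42 libraries that stood apart ORC3 was too, at 0.39 in C42 (adjusted p = 0.0287, edgeR).

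Among the genes of helicase activation, 4 of 6 fell in C42 with siSCR and R1881 and 5 were lower by adjusted p. MCM10 was at 65.8, 62.8 and 77.3 CPM in vehicle and 26.2, 40.1 and 37.3 CPM in R1881 (log2 fold change -0.996 ± 0.18 (SE), adjusted p = 0.000783). The GINS subunits GINS2 (-0.68 ± 0.19, adjusted p = 0.0143), GINS4 (-0.67 ± 0.16, adjusted p = 0.0055) and GINS1 (-0.63 ± 0.15, adjusted p = 0.00673) fell as well. CDC45, the partner of GINS on the ring, passed the adjusted p alone (-0.47 ± 0.16, adjusted p = 0.0467) and GINS3 did not pass (-0.34 ± 0.23, adjusted p = 0.319). Without both libraries that stood apart MCM10 (-0.82) was the only one of the 6 called, and GINS1 (-0.49), GINS2 (-0.51), GINS4 (-0.49) and CDC45 (-0.33) passed the adjusted p alone. In 22Rv1, MCM10 was at 37.8, 31.98 and 34.9 CPM in vehicle and 43.5, 35.95 and 34.6 CPM in R1881, with overlap (log2 fold change 0.12 ± 0.09 (SE), adjusted p = 0.36). GINS2 (0.29 ± 0.09, adjusted p = 0.0149) and GINS3 (0.37 ± 0.09, adjusted p = 0.00289) were higher there by adjusted p, and none of the 6 reached 1.5-fold.

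Of the polymerases and primase, 2 of 9 fell in C42 and 4 were lower by adjusted p. POLE, the catalytic subunit of polymerase epsilon, was at 106, 105 and 107 CPM in vehicle and 58.3, 68.6 and 66.2 CPM in R1881 (log2 fold change -0.73 ± 0.11 (SE), adjusted p = 0.000135). POLA2, the accessory subunit of polymerase alpha, fell too (-0.62 ± 0.15, adjusted p = 0.00561). POLD3 (-0.44 ± 0.13, adjusted p = 0.0211) and POLA1 (-0.46 ± 0.15, adjusted p = 0.0372) passed the adjusted p alone, while POLE2, POLD1, POLD2, PRIM1 and PRIM2 ran from -0.53 to -0.22 without passing. Without both libraries that stood apart POLE (-0.65) alone was called, and POLA2 (-0.53), POLD1 (-0.37), POLD2 (-0.26) and POLD3 (-0.32) passed the adjusted p alone. In 22Rv1 with siSCR, POLA1 (0.47 ± 0.08, adjusted p = 0.000106) and PRIM1 (0.29 ± 0.11, adjusted p = 0.0375) were higher by adjusted p. POLE was at 152, 138 and 128 CPM in vehicle and 139, 132 and 126 CPM in R1881, with overlap (log2 fold change -0.08 ± 0.08 (SE), adjusted p = 0.431).

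The sliding clamp and its loader were the only role group with no call in C42 at 1.5-fold. PCNA (-0.55 ± 0.13, adjusted p = 0.00568), RFC2 (-0.49 ± 0.11, adjusted p = 0.00489) and RFC5 (-0.39 ± 0.11, adjusted p = 0.0139) were lower by adjusted p, while RFC3 (-0.29 ± 0.15), RFC4 (-0.24 ± 0.12) and RFC1 (0.06 ± 0.10) did not pass. In 22Rv1 RFC4 (0.38 ± 0.08, adjusted p = 0.000906), RFC2 (0.37 ± 0.08, adjusted p = 0.00169) and RFC5 (0.24 ± 0.08, adjusted p = 0.0186) were higher by adjusted p, so RFC2 and RFC5 passed in opposite directions in the lines.

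Of single-strand binding and Okazaki fragment maturation, 3 of 7 fell in C42 and 6 were lower by adjusted p. FEN1, the nuclease that trims primer flaps, was at 129, 126 and 133 CPM in vehicle and 71.5, 71.6 and 82.5 CPM in R1881 (log2 fold change -0.79 ± 0.16 (SE), adjusted p = 0.00235). LIG1, the ligase that seals the fragments, fell (-0.68 ± 0.15, adjusted p = 0.00354), as did RNASEH2A, a subunit of the nuclease that removes RNA from DNA (-0.65 ± 0.17, adjusted p = 0.0126). DNA2 stood just short of 1.5-fold (-0.58 ± 0.17, adjusted p = 0.0197). RPA2 (-0.46 ± 0.10) and RPA1 (-0.30 ± 0.08) of the single-strand binding complex were lower by adjusted p, and RPA3 stood at 0.01 ± 0.10. The calls of FEN1, LIG1 and RNASEH2A held without both libraries that stood apart, at -0.74, -0.66 and -0.69. In 22Rv1 with siSCR the picture was mixed, with RPA2 (0.30 ± 0.08, adjusted p = 0.00937) and RPA3 (0.22 ± 0.08, adjusted p = 0.0297) higher and LIG1 lower (-0.31 ± 0.10, adjusted p = 0.0169) by adjusted p. FEN1 there was at 79.2, 79.3 and 73.6 CPM in vehicle and 86.1, 83.9 and 86 CPM in R1881 (0.13 ± 0.08, adjusted p = 0.182).

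Of deoxynucleotide supply, 2 of 4 fell in C42. TK1 was at 338, 303 and 317 CPM in vehicle and 155, 152 and 167 CPM in R1881 (log2 fold change -1.02 ± 0.12 (SE), adjusted p = 1.87e-05), a fall seen alike in all 3 libraries. TYMS, thymidylate synthase, went from 62.96, 66.3 and 59.97 CPM to 38.9, 40.3 and 36.7 CPM (-0.72 ± 0.13, adjusted p = 0.000985). RRM2, the regulated subunit of ribonucleotide reductase, passed the adjusted p alone (-0.53 ± 0.17, adjusted p = 0.0318), and its partner RRM1 did not pass (-0.34 ± 0.15, adjusted p = 0.118). TK1 (-0.99) and TYMS (-0.71) were called without both libraries that stood apart too. In 22Rv1 TK1 was at 78.8, 67.1 and 69.95 CPM in vehicle and 64.4, 71.5 and 72.5 CPM in R1881, with overlap (-0.06 ± 0.10, adjusted p = 0.688). RRM1 was higher (0.24 ± 0.09, adjusted p = 0.037) and RRM2 lower (-0.27 ± 0.08, adjusted p = 0.0143) there by adjusted p, so the subunits of 1 enzyme passed in opposite directions.

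Over all role groups, 22Rv1 with siSCR had 1 member that rose and 0 that fell with R1881, against 4.19% and 9.64% of all 17865 genes tested. By adjusted p alone 17 were higher and 2 lower, against 16.6% and 16.5% of all genes. The share of members higher, 36.2%, thus lay above the background and the share lower, 4.26%, below it, and the median of the members was 0.15 where that of all genes was 0.00. Under siMETTL3, R1881 called 0 members at 1.5-fold in edgeR and in DESeq2 (in edgeR 4.18% of all genes rose and 9.29% fell). An unadjusted p under 0.05 was seen for 23 members (48.9%) and 42.2% of all genes, and by adjusted p 18 were higher and 2 lower against 16.8% and 16.3% of all genes. The 3 lowest p-values there were those of POLA1, RPA3 and MCM6. POLA1 was at 34.8, 33.7 and 34.03 CPM in vehicle and 43.4, 50.7 and 47.02 CPM in R1881 (log2 fold change 0.44 ± 0.08 (SE), adjusted p = 0.000258), RPA3 at 45, 47.9 and 51.2 and 64.2, 65.7 and 63.8 CPM (0.40 ± 0.08, adjusted p = 0.000352) and MCM6 at 63.7, 60.1 and 60.7 and 80.04, 77.4 and 81.7 CPM (0.35 ± 0.07, adjusted p = 0.000554). None of these 3 overlapped between treatments, and all R1881 libraries lay higher for 28 members (59.6%) and 25.7% of all genes. By adjusted p 14 members were higher with R1881 under both siRNA pools, among them MCM4, MCM5, MCM6, CDC6, GINS2, ORC6 and POLA1. The share of all genes that were higher under both pools was not counted. The results by adjusted p in 22Rv1 are smaller than 1.5-fold, apart from CDC6, and CDC6 was no longer called with library totals alone in place of TMM scaling, or without replicate 1 of siSCR with vehicle or replicate 3 of siSCR with R1881.

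The lines were then compared in their response. With siSCR 10 members were lower in C42 and higher in 22Rv1 by adjusted p: MCM4, MCM5, MCM6, CDC6, GINS2, ORC6, RFC2, RFC5, POLA1 and RPA2. All of these but POLA1 also passed in both lines without the C42 libraries that stood apart. The share of all genes that were lower in C42 and higher in 22Rv1 was not counted. LIG1 and RRM2 were lower in both. The difference between the responses was tested directly in a fit of all 24 libraries, and a member passed on the adjusted p whatever its fold. It was higher in 22Rv1 for 31 of 47 members (66.0%, against 7.78% of all 19437 genes tested) and lower for 0, with a member median of 0.66. It was largest for CDC6 (1.31 ± 0.22, adjusted p = 0.000112), ORC6 (1.13 ± 0.19, adjusted p = 9.32e-05), MCM5 (1.12 ± 0.19, adjusted p = 0.000118) and MCM10 (1.11 ± 0.21, adjusted p = 0.000328), on the log2 scale. All 6 MCM2-7 subunits and all 6 genes of helicase activation passed, but 3 of 9 of origin recognition and licensing. Without both C42 libraries that stood apart, 25 members were higher and 1, ORC5, lower, against 7.11% and 11.6% of all genes. All 6 MCM2-7 subunits passed in that fit too, but 4 of 6 genes of helicase activation, as GINS3 and CDC45 did not. With 1 library left out at a time GINS3 was lost in 11 of 12 fits (adjusted p up to 0.226), RPA1 in 11, CDC45 and DNA2 in 7 each, POLE2, PRIM1 and RRM1 in 5 each and GINS1 in 1.

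Under siMETTL3 the difference was higher in 22Rv1 for 18 members (38.3%, against 8.45% of all genes) and lower for 0, with a median of 0.48. Here single libraries weighed more: 10 members were called without siMETTL3 with R1881 replicate 1 or replicate 2 of C42, 28 without its replicate 3, and 11 without siMETTL3 with vehicle replicate 3 of 22Rv1. Without both C42 libraries that stood apart 23 members were higher and ORC5 lower, against 6.68% and 10.2% of all genes. CDC6 (0.93 ± 0.22, adjusted p = 0.00473) and POLD3 (0.85 ± 0.16, adjusted p = 0.000389) had the largest differences called. By sign alone, with no test, 32 members with siSCR lay below 0 in C42 and above 0 in 22Rv1, 10 below in both and 5 above in both. The responses of the 47 members in the 2 lines had a Pearson r of 0.225 with siSCR and 0.142 with siMETTL3, given as descriptions across genes, which are not independent replicates. The lines share no library but each line's values share its vehicle libraries.

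**Figure D3:**
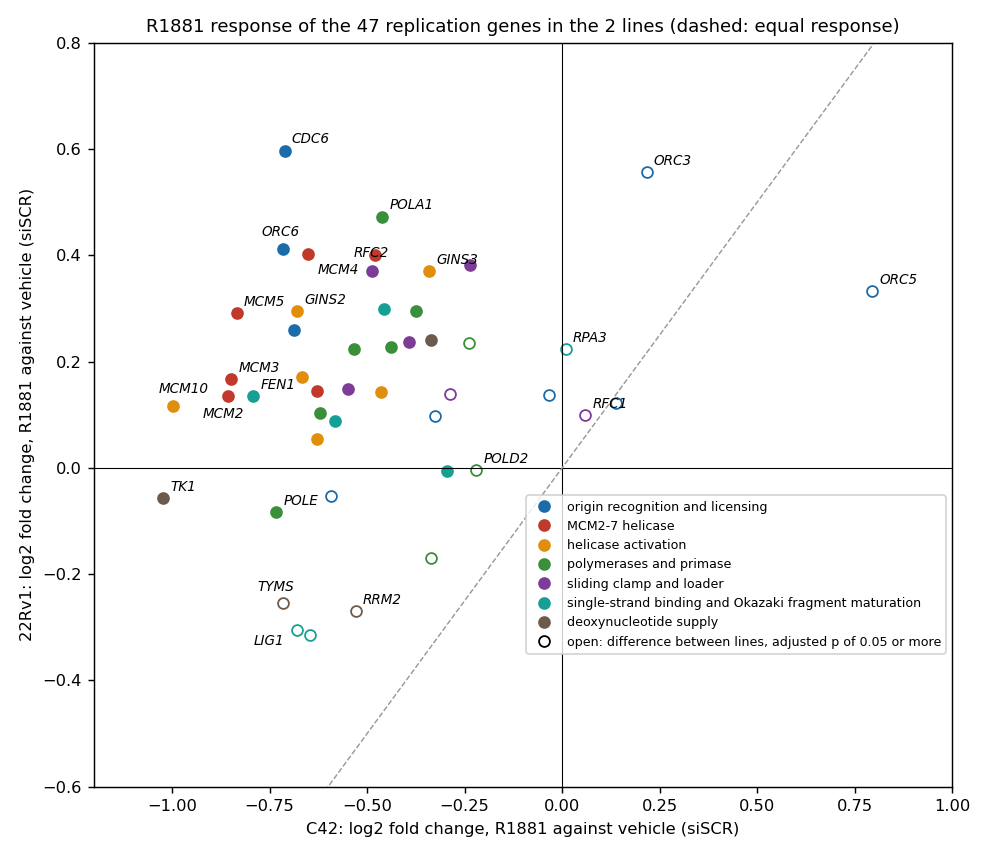
Log2 fold change with R1881 in C42 (x axis) against that in 22Rv1 (y axis), 1 point per member, coloured by role group, both with siSCR. Filled points passed the test of the difference between the lines and the dashed line marks equal responses. In all, 32 of 47 points lie left of 0 and above 0, and ORC5 lies apart at 0.79 on the x axis and 0.33 on the y axis.

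The next question was whether METTL3 knockdown moved these genes. In C42 with vehicle, 0 members were called against 1.2% of all genes (197), and 15 of the 47 (31.9%) had an unadjusted p under 0.05, against 16% of all genes. DESeq2 called 0 members too, and 350 genes. The member median was -0.18, with 43 of 47 values below 0. The lowest p-values were those of MCM6, at 99.6, 103 and 116 CPM with siSCR and 77.97, 77.8 and 85.2 CPM with siMETTL3 (log2 fold change -0.42 ± 0.13 (SE), adjusted p = 0.12), MCM3, at 139, 127 and 152 and 92.4, 102 and 118 CPM (-0.44 ± 0.14, adjusted p = 0.12), and ORC5, at 64.6, 65.6 and 76.1 and 57.6, 49.1 and 50.8 CPM (-0.41 ± 0.13, adjusted p = 0.135). The siMETTL3 libraries lay below the siSCR ones in these 3, as for 16 members (34%) and 10.0% of all genes. In the siMETTL3 group replicate 1 was the lowest library for several members, as for MCM2 at 167, 229 and 261 CPM and MCM5 at 59.1, 85.6 and 98.9 CPM. It is the library with the highest mitochondrial share of its group, and the part of that in the result was not tested. Without both C42 libraries that stood apart, 0 members were called in vehicle and 702 of all genes, and by adjusted p alone 7 members were lower (DNA2, MCM3, MCM6, ORC2, ORC5, POLE2 and PRIM1) and 2 higher (RNASEH2A and TK1), against 6.57% and 9.17% of all genes.

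In C42 with R1881, siMETTL3 against siSCR called 1 member, TK1, which rose from 155, 152 and 167 CPM to 274, 213 and 286 CPM (log2 fold change 0.71 ± 0.12 (SE), adjusted p = 0.0174), where 0.28% of all genes rose. The siMETTL3 libraries all lay above the siSCR ones. The call was lost without replicate 2 (adjusted p = 0.137) or 3 (0.0678) of siSCR with R1881 and without replicate 1 (0.129) or 3 (0.0663) of siMETTL3 with R1881, and it held without both libraries that stood apart, where ORC3 was called lower beside it. By adjusted p alone 16 members were then lower and 5 higher, against 18.9% and 19.8% of all genes in that fit, where TK1 alone had passed with all libraries. The number of all genes called at 1.5-fold went from 115 to 1900. The median over the 47 members was -0.03 and that over all genes 0.00 with all libraries.

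With siMETTL3 the response of C42 to R1881 called 2 members, POLD3 lower and ORC5 higher, against 5.54% and 5.09% of all genes. POLD3, the accessory subunit of polymerase delta, was at 35.2, 26.7 and 29.3 CPM in vehicle and 18.8, 19.2 and 20.6 CPM in R1881 (log2 fold change -0.62 ± 0.13 (SE), adjusted p = 0.00326). ORC5 rose from 57.6, 49.1 and 50.8 CPM to 108, 79.5 and 104 CPM (log2 fold change 0.90 ± 0.13 (SE), adjusted p = 0.000178), so it was called under both siRNA pools. Without replicate 1 of siMETTL3 with vehicle, the library that stood apart, POLD3 was not called and TK1 was. By adjusted p 7 members were lower (MCM3, RFC2, POLD3, POLE, RPA1, RRM1 and TK1) and 1 higher, against 8.09% and 8.51% of all genes. The member median was -0.29, with 44 of 47 below 0. The libraries with R1881 spread widely: MCM2 was at 165, 132 and 210.1 CPM, against 167, 229 and 261 CPM in vehicle, and replicate 3 lay highest for MCM2, MCM4, MCM5 and MCM10. Without that replicate 8 members were called, 7 of them lower. Without both C42 libraries that stood apart 2 members were called, but by adjusted p alone 28 were lower and 1 higher, where 12% and 12.3% of all genes in that fit were. The siSCR numbers of the same fit were 32 and 2.

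That 20 members fell with siSCR and 1 with siMETTL3 does not show that the responses differed. The interaction of R1881 and siMETTL3 in C42 called 0 of 47 members and 0 of all 16435 genes (0.0%) in edgeR, with 7 members (14.9%) and 2037 genes (12.4%) at an unadjusted p under 0.05. DESeq2 called 0 members and 56 genes. The lowest p-values among members were those of TYMS (0.54 ± 0.19, adjusted p = 0.346), TK1 (0.48 ± 0.17, adjusted p = 0.36) and FEN1 (0.61 ± 0.23, adjusted p = 0.363). TYMS was at 39.5, 53.3 and 58 CPM with siMETTL3 in vehicle and 41.8, 40.5 and 49.8 CPM with R1881, TK1 at 317, 389 and 430.0 and 274, 213 and 286 CPM, and FEN1 at 86.6, 122 and 138 and 100.1, 79.7 and 124 CPM. The groups overlapped for TYMS and FEN1 and not for TK1. The member median of the interaction, 0.19, came to 0.04 without the C42 libraries that stood apart, where 220 genes and 0 members passed. Without the filter on low counts FEN1 passed, with 351 genes, and under the other settings run no member did.

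**Figure D4:**
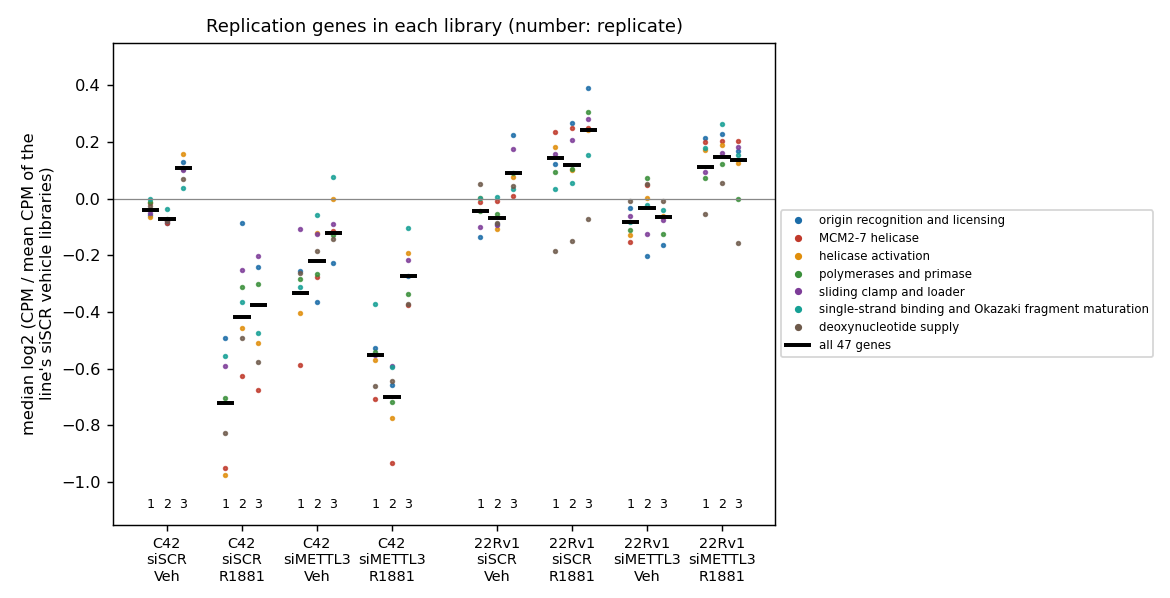
Median log2 ratio of the 47 members to their mean in the siSCR vehicle libraries of the line (y axis), 1 black line per library, for the 4 conditions of each line (x axis), with coloured points for the medians of the 7 role groups. The C42 siSCR libraries with R1881 lie at -0.72, -0.42 and -0.37 and those with siMETTL3 and R1881 at -0.55, -0.70 and -0.27, while the 22Rv1 libraries stay between -0.08 and 0.24.

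In 22Rv1, siMETTL3 called 0 members in vehicle (0.202% of all genes, 36), with 8 members (17%) at an unadjusted p under 0.05, near the 14.6% of all genes. DESeq2 called 0 members and 42 genes. Without replicate 1 of siMETTL3 with vehicle, the library with the highest mitochondrial share of that group, edgeR called 0 members and 228 genes. The lowest p-values were those of ORC2, at 44.9, 42.4 and 48.02 CPM with siSCR and 40.5, 33.1 and 36.3 CPM with siMETTL3 (log2 fold change -0.30 ± 0.09 (SE), adjusted p = 0.14), POLD3, at 32.4, 32.6 and 35.2 and 30.9, 26.3 and 25.2 CPM (-0.28 ± 0.09, adjusted p = 0.16), and MCM6, at 67.2, 69.04 and 73.8 and 63.7, 60.1 and 60.7 CPM (-0.19 ± 0.07, adjusted p = 0.238). All 3 lay lower with siMETTL3 in every library, as did 9 members (19.1%) and 6.47% of all genes. With R1881, 0 members were called at 1.5-fold, where 3.29% of all genes (587) were. DESeq2 called 0 members too, 15 members (31.9%) had an unadjusted p under 0.05, about the share of all genes (32%), and by adjusted p 7 members were lower and 1 higher, against 7.28% and 8.93% of all genes. The 7 were ORC2 (-0.47 ± 0.09, adjusted p = 0.00272), ORC3 (-0.44 ± 0.11), POLD3 (-0.32 ± 0.09), CDC6 (-0.30 ± 0.09), MCM3 (-0.27 ± 0.07), MCM6 (-0.24 ± 0.07) and MCM4 (-0.19 ± 0.07). ORC2 was at 48.3, 47.8 and 53.3 CPM with siSCR and 33.5, 38.4 and 37.4 CPM with siMETTL3, without overlap. RNASEH2A was higher, at 30.2, 30.6 and 29.5 CPM with siSCR and 45.8, 46.9 and 41.5 CPM with siMETTL3 (0.56 ± 0.12, adjusted p = 0.00591). MCM3 was at 118, 119.5 and 119 CPM and 100.4, 99.7 and 99.3 CPM (-0.27 ± 0.07, adjusted p = 0.0109). The interaction in 22Rv1 called 0 members, against 0.0168% of all genes (3), with 0 members at an unadjusted p under 0.05 (6.16% of all genes) and a lowest adjusted p of 0.83. DESeq2 called 0 members and 3 genes.

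Levels of the members also differed between the lines. With siSCR and vehicle, 4 members were higher in 22Rv1 and 13 lower at 1.5-fold, against 31.2% and 27.9% of all 19437 genes, so the lower share, 27.7%, was near the background and the higher, 8.51%, below it. With R1881 the split was 16 higher and 4 lower, 34% and 8.51% of the members, against 32.6% and 27.5% of all genes. TK1 was at 319 ± 17.4 CPM (SD, n = 3) in C42 and 71.95 ± 6.09 CPM (SD, n = 3) in 22Rv1 in vehicle (log2 difference -2.15 ± 0.12 (SE), adjusted p = 4.71e-15), and at 158 ± 7.92 CPM (SD, n = 3) and 69.5 ± 4.42 CPM (SD, n = 3) with R1881 (-1.19 ± 0.11, adjusted p = 6.09e-10). GINS1 (-1.64 ± 0.13 in vehicle) and RPA1 (-1.12 ± 0.06) were lower in 22Rv1 in both treatments, as TK1 was. GMNN (1.15 ± 0.14), GINS3 (1.08 ± 0.17), ORC3 (1.38 ± 0.16) and LIG1 (1.04 ± 0.12) were higher in both. By adjusted p 10 members were lower in 22Rv1 in vehicle and higher with R1881: MCM2, MCM3, MCM6, MCM7, CDC6, PCNA, RFC2, RFC5, POLA1 and POLA2. Without the C42 libraries that stood apart 8 of them did so, MCM6 and CDC6 being the exceptions. The share of all genes with this change of direction was not counted. CDC6 was at 103 ± 13.8 CPM (SD, n = 3) in C42 and 58.8 ± 9.59 CPM (SD, n = 3) in 22Rv1 in vehicle (-0.80 ± 0.16, adjusted p = 4.99e-05), and at 62.98 ± 14.1 CPM (SD, n = 3) and 89.1 ± 3.61 CPM (SD, n = 3) with R1881 (0.50 ± 0.16, adjusted p = 0.00546). These comparisons of levels share their libraries with the tests of the responses above.

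**Figure D5:**
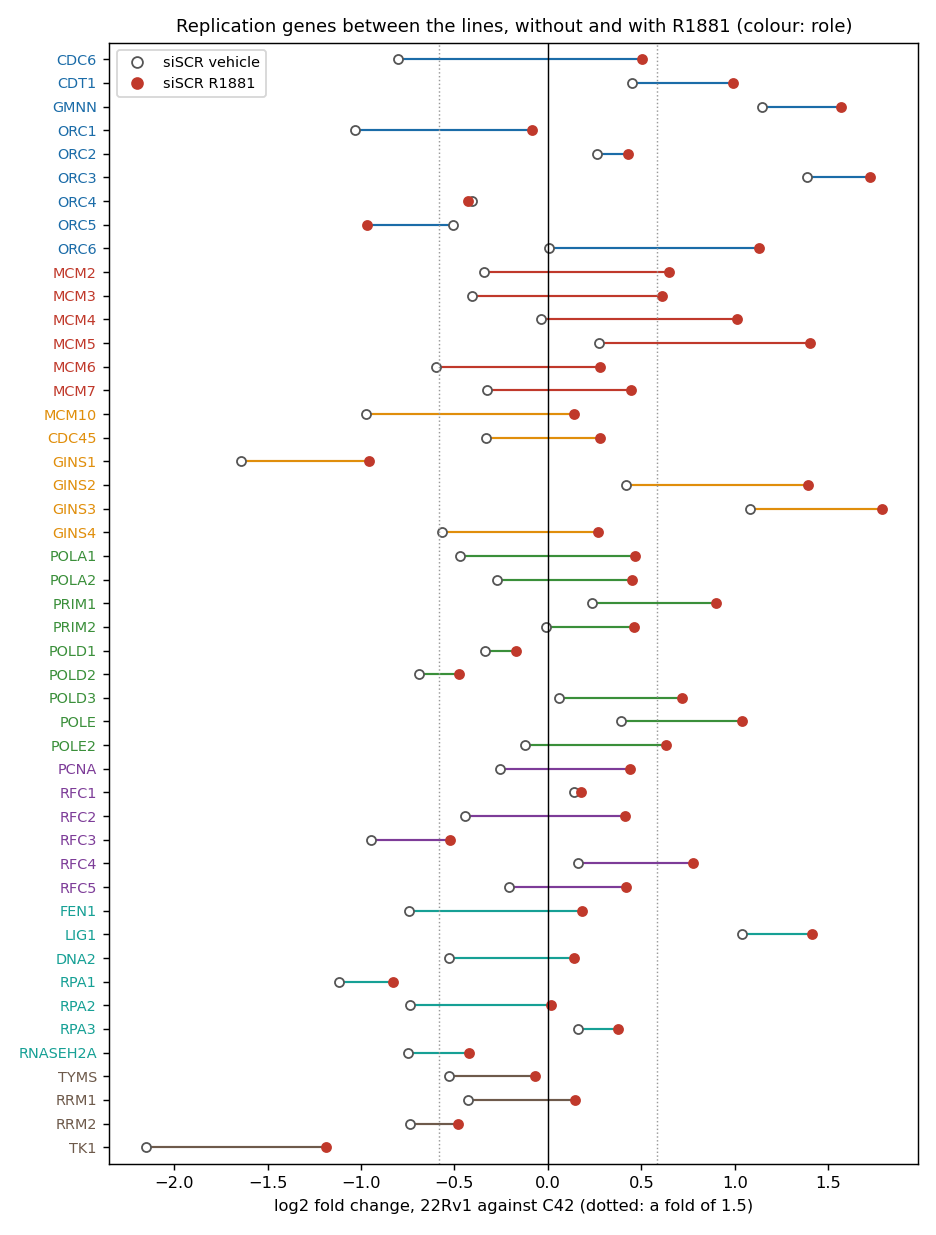
Log2 difference in level of each of the 47 members between 22Rv1 and C42 with siSCR (x axis), in vehicle and with R1881 (the 2 points of a row, joined by a line), ordered by role. For 45 of 47 members the R1881 point lies right of the vehicle point, and ORC5 goes left, from -0.51 to -0.97.

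The members with no call by adjusted p in any R1881 or siMETTL3 comparison within a line, interactions included, were GMNN, ORC4, RFC1, RFC3, POLD1, POLD2 and POLE2. Without both C42 libraries that stood apart only RFC1 of these 7 had no call, as POLD1 and POLD2 then passed lower with R1881 under siSCR, POLE2 lower with siMETTL3 in vehicle, and GMNN, ORC4, RFC3 and POLE2 lower and POLD1 higher with siMETTL3 in R1881. With all libraries, in C42 with siSCR and R1881 they ran from -0.53 (POLE2, adjusted p = 0.0511) to 0.14 (ORC4).

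A list of 32 other replication genes, among them fork protection factors, kinases, histone chaperones, topoisomerases and parts of alternative clamp loaders, was counted beside the members. In C42 with siSCR and R1881, 7 of the 32 fell, 0 rose and 12 were lower by adjusted p, with a median of -0.34. Of all genes 7.72% fell, 7.39% rose and 12.1% were lower by adjusted p. ASF1B, a histone chaperone (-1.003 ± 0.13, adjusted p = 3.88e-05), and CLSPN, claspin of the replication checkpoint (-0.87 ± 0.20, adjusted p = 0.0044), had the largest falls. With siMETTL3 only TOP2A, a topoisomerase of dividing cells, fell (-0.80 ± 0.18, adjusted p = 0.00483), where 5.54% of all genes did. In 22Rv1 the only call at 1.5-fold was POLD4, the smallest subunit of polymerase delta. With R1881 it rose with siSCR (0.89 ± 0.14, adjusted p = 3.47e-05) and with siMETTL3 (0.96 ± 0.13, adjusted p = 8.28e-06). Of all genes 4.19% and 4.18% rose there. The siMETTL3 comparisons called 0 of the 32 at 1.5-fold in edgeR, in vehicle or R1881 and in either line. DESeq2 called 1, in C42 with R1881. By adjusted p alone 4 of the 32 were higher and 2 lower in 22Rv1 with R1881, against 8.93% and 7.28% of all genes. In C42 with vehicle 1 was lower by adjusted p, where 84 of all 16435 genes were. At an unadjusted p under 0.05 there were 5 of the 32 in C42 with vehicle (16% of all genes), 8 in C42 with R1881 (28.6%), 7 in 22Rv1 with vehicle (14.6%) and 15 in 22Rv1 with R1881 (32%). The difference between the lines in response was higher in 22Rv1 for 11 of the 32 with siSCR and 8 with siMETTL3, and lower for 0. It was higher for 7.78% and 8.45% of all genes.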

How the data were processed

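RNA-seq of 24 libraries was used, 3 for each combination of LNCaP:C42 or 22Rv1, siSCR or siMETTL3, and vehicle or R1881, grouped by their labels. The authors trimmed adapters (Trim Galore), used STAR for alignment against GRCh38, and obtained fragment counts for the genes of Ensembl release 83 from featureCounts 1.5.0-p1. The deposited values are raw counts, not normalized. Symbols were matched by gene identifier for 56558 of the 60675 genes, all 47 members among them. A further RNA-seq data set of the study, with the METTL3 inhibitor STM2457, was not analysed here. The result of 1 marker gene is not reported here.

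The members and lists were chosen with earlier results of these data known. edgeR 4.0.16 (R 4.3.3) fitted the 12 libraries of a line together, with 1 mean per condition, TMM scaling and filterByExpr (minimum count 10, minimum total count 15), and glmQLFTest gave each comparison, with 8 residual degrees of freedom. Comparisons between lines came from all 24 libraries, with 16. P-values were adjusted by Benjamini-Hochberg over all genes tested, and calls needed an adjusted p below 0.05 and a fold of 1.5 (log2 0.585). Interactions and differences between the lines in response needed the adjusted p only. The SE is the absolute log2 fold change over the square root of F. All 47 members passed the filter in every comparison. Depth ran from 15716224 to 21306019 counts per library. Tests were checked on simulated counts drawn independently for each gene and library. No simulated library stood apart from its group, so the check does not cover that case.

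Members may all be named. Values of single libraries are given for the MCM2-7 subunits and, in each role group and comparison within a line, for the called member with the largest change. Where a comparison called none they are given for the 3 members with the lowest p. Values for RNASEH2A, ORC6, TYMS, TK1 and CDC6 outside this rule were added after they were seen. Of the other 32 replication genes, the 2 with the largest called changes are named. Promoter windows came from RefSeq (GRCh38.p14). Alternatives were DESeq2 1.42.0, RLE size factors, library size alone, no filter on low counts, no fold threshold, the replicate number as a block, only the 6 libraries compared, and each library left out in turn. Leaving out both C42 libraries that stand apart was added after seeing the data. Tables and figures were made with Python 3.11.15, pandas 2.3.3 and matplotlib 3.10.9, and the permutation tests with scipy 1.17.1.

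Replicate numbers come from the labels, which do not say that a number marks a shared culture or day.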

Additional observations from a re-analysis of the deposited data

Results flagged for a closer look

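The response to R1881 differed between the lines by a direct test in the fit of all 24 libraries, edgeR with Benjamini-Hochberg adjustment. With siSCR 31 of 47 members passed, all higher in 22Rv1. The largest difference in each of the 7 role groups, on the log2 scale, was that of CDC6 at 1.31, MCM5 at 1.12, MCM10 at 1.11, TK1 at 0.96, POLA1 at 0.93, FEN1 at 0.92 and RFC2 at 0.85. With siMETTL3 18 members passed, again all higher in 22Rv1. The largest in each role group were CDC6 at 0.93, POLD3 at 0.85, MCM10 at 0.70, PCNA at 0.70, MCM4 at 0.69, RRM1 at 0.63 and RPA2 at 0.61. With 1 library left out at a time MCM10 was lost in 7 of 12 fits (adjusted p up to 0.167), RRM1 in 6 and MCM4 in 3. CDC6, POLD3, PCNA and RPA2 passed in all 12. No group had 4 or more libraries, so single libraries could not be screened for outlying values in this way. Whether the difference between the lines itself differs between the siRNA pools was not tested.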

How the results depend on the processing

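The fold threshold decided most counts. Without it C42 had 32 members called with siSCR and R1881 and 8 with siMETTL3 and R1881 (4081 and 2728 of all 16435 genes). The same comparisons in 22Rv1 had 19 and 20 (5903 and 5917 of all 17865 genes). For siMETTL3 in 22Rv1 with R1881 the count was 8 (2897 of all genes). Between the lines 37 of 47 members were called in vehicle and 36 in R1881, where 14360 and 14573 of all 19437 genes were. With library size alone C42 with siMETTL3 and R1881 had 6 and 22Rv1 with siSCR 0. For siMETTL3 in C42 with R1881 the count was 2, TK1 and ORC3, without the filter on low counts, with DESeq2, with only the 6 libraries compared and without both C42 libraries that stand apart. Without the filter the C42 interaction called 1 member, FEN1, and siMETTL3 in 22Rv1 with R1881 called 1, RNASEH2A. Without both C42 libraries C42 with siSCR had 12. The cause of these changes was not tested.

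Leaving out 1 library at a time gave 12 to 24 members in C42 with siSCR (12 without R1881 replicate 1), 2 to 8 with siMETTL3, 0 to 2 for siMETTL3 in C42 with R1881, 0 to 2 in 22Rv1 with siSCR, 0 to 1 for siMETTL3 in 22Rv1 with R1881, and 10 to 28 for the difference between the lines with siMETTL3. METTL3 in C42 ran from -0.66 to -0.55 in vehicle and from -0.65 to -0.52 in R1881. In vehicle METTL3 lost its call in 4 of 6 fits (adjusted p up to 0.0982). With only the 6 libraries compared it was -0.61 in vehicle (adjusted p = 0.054), and without both C42 libraries -0.65 in R1881, past 1.5-fold. MCM3 with R1881 against vehicle in 22Rv1 under siMETTL3, 0.03 with all libraries and TMM scaling, was -0.032 with library size alone and ran from -0.0079 to 0.058 with 1 library left out.

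When the replicate number was a block, the difference between the lines with siMETTL3 called 22 members (21 higher, 1 lower) against 18, and the other 13 comparisons kept their count of members called. Residual correlations of libraries with the same number ran from -0.34 to 0.19 in C42 over 18 pairs. In 22Rv1 they ran from -0.23 to 0.15 over 18 pairs. Libraries with different numbers ran from -0.27 to 0.34 in C42 and from -0.23 to 0.28 in 22Rv1, over 36 pairs each. With 3 libraries per group these values cannot decide whether a number marks a shared culture or day. The E2F word without its first T was in 26 of 40 member windows (65%). It was in 13.1% of all windows and 20.4% of those of genes tested in C42. Every member had at least 111 counts in each library, and each group has 3 libraries.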
